A study of Mus musculus with 4 samples.

Results

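The genes described here encode granule proteins, lysozymes, S100 proteins and surface molecules of neutrophils, monocytes and macrophages: Mpo, Prtn3, Elane, Ctsg, Lyz1, Lyz2, S100a8, S100a9, Csf1r and Cybb. They are 10 of 18193 genes that the platform annotation ties to a probe set with a single symbol, and they were picked with their values in Ets1-deleted and control cells already known. For that reason the difference between the genotypes is given for them as a description, without a test. All 10 were on the array, with 16 probe sets between them. Each gene is given by its brightest probe set, the one with the highest mean over the 4 arrays, and the other 6 probe sets serve as a check.

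The cells were ILC2, group 2 innate lymphoid cells, of C57BL/6 mice. In one group Ets1, the gene of an ETS family transcription factor, was deleted, and the other came from littermate controls, with 2 arrays per group. Both groups were grown for 2 weeks on OP9-DL1 stromal cells, which display a Notch ligand, in the presence of IL-7 and IL-33, and ICOS+ cells were sorted into lysis buffer. The sources used here give neither the age of the mice nor how Ets1 was deleted, and nothing says whether the 2 arrays of a group came from separate animals. Values are intensity units of probe sets on Affymetrix arrays, whose medians lay between 96.5 and 97.7. Ets1 itself read 138.1 and 180.2 units in Ets1-deleted cells, against 1272 and 1231 units in control cells.

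Primary granules form early in the maturation of neutrophils and hold myeloperoxidase and a family of serine proteases that kill and digest microbes. Their genes are most active in granulocyte and monocyte progenitors and are switched off as the cells mature. Lysozyme and the S100A8 and S100A9 proteins come up later and stay high in mature neutrophils and monocytes, while CSF1R and the NADPH oxidase serve signalling and oxygen radical production in phagocytes. PU.1, itself an ETS family protein, C/EBP factors and RUNX1 are known to drive many of these genes.

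Short stretches before the gene starts are shown because the granule protease genes share a run of letters there. RefSeq promoter windows of the GRCm38.p6 build, from 250 bases before to 50 bases after each start, were matched for 9 of the 10 genes (not for Csf1r). The letters GAGGAAG, a form of the site that PU.1 binds, occurred on either strand in the windows of 5 of these 9 genes, against 13.6% of all 32851 windows in the table. The 5 include all 4 primary granule genes and S100a8. Capitals mark GAGGAAG, or CTTCCTC where it lies on the opposite strand, and each line runs 5′ to 3′ in the direction of the gene.
Mpo, chr11:87793534-87793586, + strand: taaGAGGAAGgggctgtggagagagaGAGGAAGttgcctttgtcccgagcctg
Prtn3, chr10:79879552-79879598, + strand: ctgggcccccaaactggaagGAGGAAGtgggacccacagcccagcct
Elane, chr10:79886207-79886253, + strand: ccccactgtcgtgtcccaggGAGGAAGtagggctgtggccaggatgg
Ctsg, chr14:56102764-56102810, - strand: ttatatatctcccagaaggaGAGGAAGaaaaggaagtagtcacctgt
S100a8, chr3:90668880-90668926, + strand: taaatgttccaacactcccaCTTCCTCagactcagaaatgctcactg

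The run began 95 bases before the start of Prtn3, 85 before Elane, 216 before Ctsg, 171 before S100a8, and at 247 and 224 bases before Mpo. GAGGAAG contains the ETS core GGAA, which on either strand was in the windows of all 9 genes and in 96% of all windows. A C/EBP form, TTGCNNAA, was found for Lyz1 and S100a9, against 10.8% of all windows. The RUNX letters TGTGGT were found for Ctsg, Lyz2, S100a9 and Cybb, against 16.8%. These matches describe letters in a window and are not evidence of binding.

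Lyz1 and Lyz2 lie next to each other, and the bases before their starts are shown to compare the promoters of the gene pair. These bases are not in the mRNA that the probes read. The probe sets given for the pair read unequally, but some probes of the brightest Lyz1 probe set may also match other transcripts, as described below. Over the last 120 bases before the start, 111 were the same at the same position (92.5%), and over 250 bases 152 were (60.8%). Capitals mark the 9 positions that differ.
Lyz1, chr10:117292869-117292988, - strand: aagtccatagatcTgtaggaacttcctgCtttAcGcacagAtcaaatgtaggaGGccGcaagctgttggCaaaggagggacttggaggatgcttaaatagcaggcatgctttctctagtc
Lyz2, chr10:117282273-117282392, - strand: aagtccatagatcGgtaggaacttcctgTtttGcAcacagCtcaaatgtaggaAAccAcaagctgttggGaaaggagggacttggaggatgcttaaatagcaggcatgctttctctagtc

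Across the genes, the readings were higher in Ets1-deleted cells by amounts that ran from little to nearly 3-fold. In 9 of the 10 both Ets1-deleted arrays read above both control arrays, and in 4 (Ctsg, S100a9, Lyz1 and Csf1r) the difference also reached 2-fold. Among all 18193 genes these shares were 26.4% and 1.84%. The genes were chosen on this contrast, so nothing is read from the comparison of shares. The median log2 difference, Ets1-deleted minus control, was 0.59 over the 10 genes, with a range from 0.15 to 1.51, beside a median of -0.0036 over the tested genes. In a bulk sample, more cells of a type and more RNA per cell cannot be told apart.

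**Figure D1:**
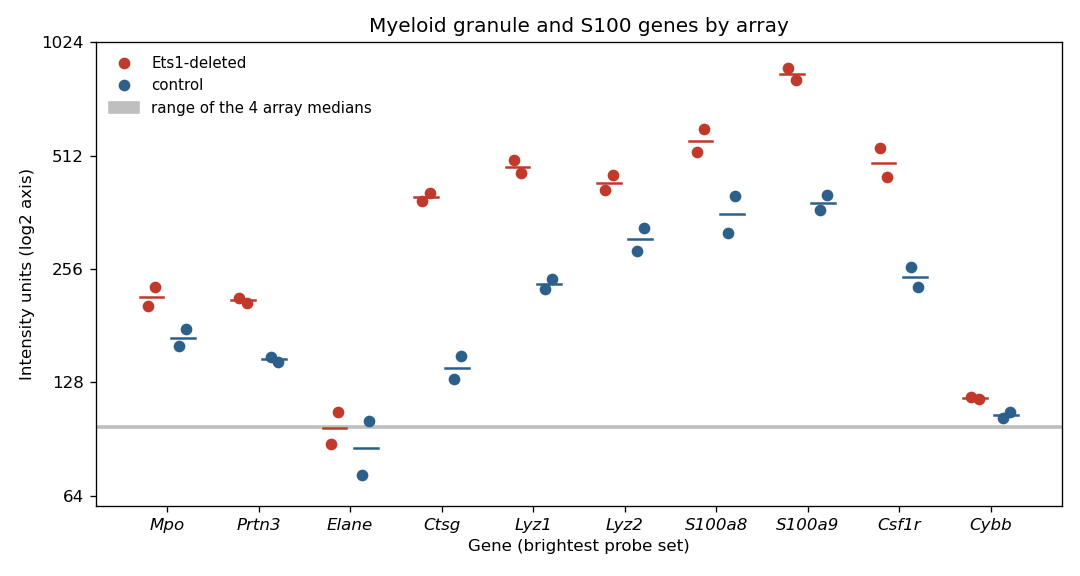
Intensity units of the brightest probe set of each gene on a log2 axis, with a point per array, a bar at the group's geometric mean, Ets1-deleted in red and control in blue. The grey band spans the 4 array medians (96.5 to 97.7). The groups overlap for Elane only, and Elane and Cybb sit beside the band.

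Ctsg had the widest gap among the primary granule genes. Cathepsin G, its product, is a serine protease with chymotrypsin-like activity. It read 389 and 407 units in Ets1-deleted cells, against 130.4 and 150.1 units in control cells. Both Ets1-deleted arrays were far above the controls, at 2.84-fold or a log2 difference of 1.51 (replicate SD 0.11, n = 2 per group). Here and below, the replicate SD is the pooled SD of log2 values within the groups. Prtn3 encodes proteinase 3, a serine protease that is also the target of autoantibodies in human vasculitis. Its probe set read 214 and 208 units in Ets1-deleted cells, against 149 and 145 units in control cells. That is 1.44-fold, with replicates close together (log2 difference 0.52, replicate SD 0.028).

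The other primary granule genes differed less. Mpo encodes myeloperoxidase, which makes hypochlorous acid from hydrogen peroxide and chloride. It read 204 and 229 units in Ets1-deleted cells, against 159.7 and 177 units in control cells, with no overlap (log2 difference 0.36, replicate SD 0.11). Elane, for neutrophil elastase, read 87.5 and 107 units in Ets1-deleted cells, against 72.7 and 101 units in control cells. Here the groups overlapped, and the log2 difference of 0.18 was smaller than the replicate SD of 0.28. Without control 1 it turned to -0.06. Elane was also the single gene of the 10 whose mean fell under the limit for testing (97.97 units, the 50th percentile of probe set means). The other 9 reached that limit in both controls too, so none of them entered through its Ets1-deleted values alone.

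The lysozyme genes gave unequal readings. Lysozyme cuts the bacterial cell wall; Lyz2 is the form of mouse myeloid cells and Lyz1 the form best known from Paneth cells of the gut. The brightest Lyz1 probe set read 498 and 461 units in Ets1-deleted cells, against 227 and 241 units in control cells (log2 difference 1.03, replicate SD 0.070). Lyz2 read 416 and 454 units in Ets1-deleted cells, against 287 and 329 units in control cells (log2 difference 0.50, replicate SD 0.12). Both groups were apart for both genes. The second Lyz1 probe set had nearly the same log2 difference as the first, 1.03, from 334 and 292 units in Ets1-deleted cells, against 159 and 148 units in control cells.

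The remaining Lyz1 probe set did not share this pattern. It read 58.3 and 69.2 units in Ets1-deleted cells, against 72.7 and 62.5 units in control cells, a log2 difference of -0.09 with every array below its median. The array maker gives the pair of higher Lyz1 probe sets a name ending in _x_at, used where some probes also match other transcripts, whereas the dim one has a plain name. Which lysozyme transcript the _x_at probe sets read was not tested. With the mean over its 3 probe sets the Lyz1 difference was 0.66.

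S100A8 and S100A9 are calcium-binding proteins that pair with each other, make up much of the soluble protein of neutrophils and withhold zinc and manganese from microbes. S100a9 read 877 and 816 units in Ets1-deleted cells, against 366 and 402 units in control cells, with no overlap, 2.21-fold (log2 difference 1.14, replicate SD 0.085). S100a8 read 522.5 and 603 units in Ets1-deleted cells, against 318.5 and 401 units in control cells. Its log2 difference was 0.65, and its replicate SD of 0.20 was larger than that of S100a9. Leaving out any 1 array moved S100a8 between 0.48 and 0.82 and S100a9 between 1.08 and 1.21.

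Csf1r encodes the receptor for CSF1 and IL-34, on which monocytes and macrophages depend. Its brightest probe set read 536 and 448 units in Ets1-deleted cells, against 259 and 229 units in control cells. The groups were clearly apart (log2 difference 1.01, replicate SD 0.16). The second probe set, at 218 and 195 units in Ets1-deleted cells and 145 and 114 units in control cells, gave 0.68. The third gave 0.40, from 142 and 113 units in Ets1-deleted cells, against 90.3 and 102 units in control cells. All 3 Csf1r probe sets were thus higher in both Ets1-deleted arrays, by shrinking amounts as they became dimmer.

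Cybb encodes gp91phox, the catalytic subunit of the phagocyte NADPH oxidase. Its brightest probe set read 117 and 115 units in Ets1-deleted cells, against 103 and 107 units in control cells, a log2 difference of 0.15 (replicate SD 0.031). The groups did not overlap, but every value lay close above the array medians. Its other probe sets gave -0.03 and 0.07 and read at or below 85.9 units on all 4 arrays. Cybb thus read close to the array medians in both genotypes.

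**Figure D2:**
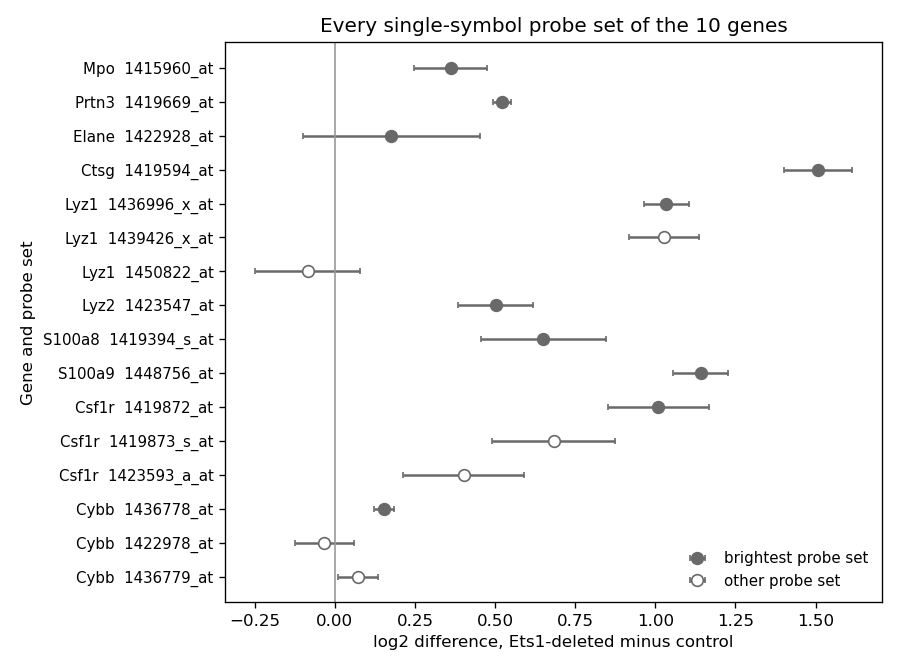
The log2 difference, Ets1-deleted minus control, of all 16 single-symbol probe sets, with bars of 1 pooled replicate SD on either side. Filled points are the brightest probe set of each gene and open points the others. Lyz1 and Cybb each have a probe set below 0, at -0.09 and -0.03.

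Near the floor of the array, where readings level off, a fold change is understated. A gene was counted as near the floor in a group when every array of the group read at or below its own median. By that count 0 of the 10 genes were near the floor in control cells, since Elane read 72.7 units in control 1 but 101 units in control 2. Part of the 10 were nevertheless modest: 4 lay under the upper quartile of the array in both Ets1-deleted arrays (253 and 251.5 units) and 6 in both control arrays (248.6 and 248.4 units). The brightest, S100a9, read 877 and 816 units in Ets1-deleted cells. Subtracting the 5th percentile of each array, with a floor of 16 units, moved Ctsg to 2.03 and the median of the 10 to 0.76, and it turned no gene round.

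The genes also differed between the replicate arrays of a group. Between Ets1-deleted 1 and Ets1-deleted 2, 5 of the 10 read higher in the first and 5 in the second, with a median log2 difference of -0.02. Between control 1 and control 2 the split was 2 and 8, with a median of -0.14. Among tested genes 50.6% read higher in Ets1-deleted 1 and 47.9% in control 1. Elane showed the widest gap in both groups, -0.29 between the Ets1-deleted arrays and -0.47 between the controls, and S100a8 followed among the genes lower in replicate 1, with -0.21 and -0.33. Csf1r ran the other way in both (0.26 and 0.18). Across the 10 genes the replicate differences of the 2 groups had a Pearson r of 0.89, and 7 had the same sign in both groups. Over all 10875 tested genes r was 0.17 and 55.2% had the same sign. These points share the same 4 arrays and are not independent, and the labels do not say that a replicate number marks a shared batch.

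**Figure D3:**
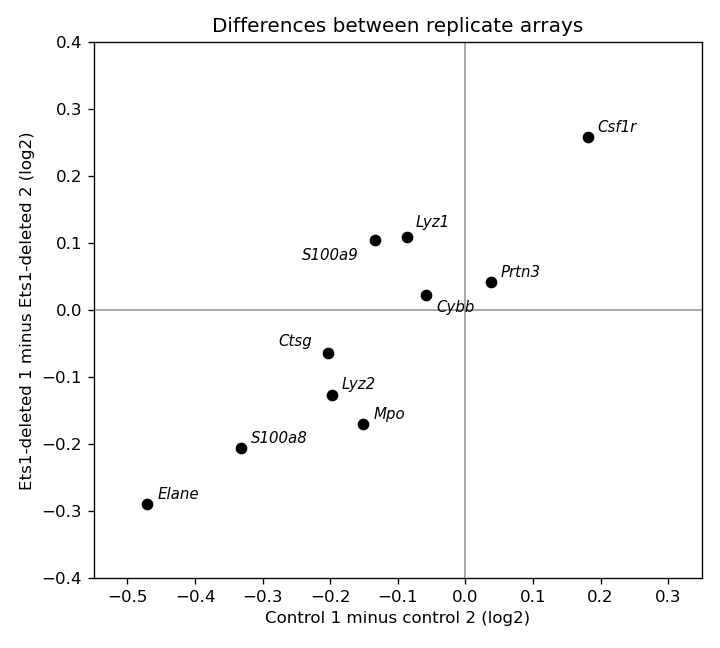
For each of the 10 genes, the log2 difference between the Ets1-deleted replicate arrays (vertical axis) against that between the control replicate arrays (horizontal axis). Elane and S100a8 lie at the lower left and Csf1r at the upper right, and S100a9, Lyz1 and Cybb are the genes with opposite signs.

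Genes that work with these products were tested in the fit over all genes (limma, Benjamini-Hochberg adjusted p below 0.05, 10875 genes). In that fit 14% of tested genes were higher and 12.8% lower in Ets1-deleted cells. Of the 50 list genes called higher, 14 had a control mean below the limit for testing and so entered the test through their Ets1-deleted values. These 14, Mmp8, Nfe2, Irf8, Klf4, Csf2rb2, Cd34, Clec4d, Adgre1, C1qa, Cpa3, Mitf, Hdc, Prg2 and Siglecf, were all called higher with no filter on dim genes too. Of 5 tested genes for primary granule contents and partners, 3 rose and 0 fell, with a median log2 difference of 0.51. Ms4a3, a membrane protein gene of granulocyte and monocyte progenitors, rose by 1.21 ± 0.13 (SE, n = 2 per group, adjusted p = 3.65e-05 with limma). It read 234 and 267 units in Ets1-deleted cells, against 121 and 96.5 units in control cells. Ctsc encodes the peptidase that activates the granule serine proteases, and it rose by 0.91 ± 0.12 on a probe set with 1677 and 1757 units in Ets1-deleted cells, against 1007 and 834 units in control cells. Other Ctsc probe sets above the limit gave 0.42 and 0.13. Srgn, the proteoglycan core that packs granule proteins, rose by 0.51 ± 0.11, while the lysosomal enzyme gene Gusb differed by -0.26 (adjusted p = 0.146 with limma).

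Granule contents of later stages were often dim. Of 16 measured genes for secondary and tertiary granules, 8 were near the floor in both groups, among them Ltf (lactoferrin), Chil3, Mmp9, Cd177 and Olfm4, and 6 were bright enough to test. Of these, 2 rose and 0 fell, with a median of 0.21 (0.15 over the 16 measured). Mmp8, for neutrophil collagenase, rose by 1.54 ± 0.11 (adjusted p = 1.13e-06 with limma), with 204 and 192 units in Ets1-deleted cells, against 71.1 and 65.5 units in control cells, where it was near the floor. With no filter on dim genes its adjusted p was 6.89e-05 with limma. Lcn2, which binds bacterial siderophores, differed by 0.45 ± 0.13 (adjusted p = 0.0198 with limma). Leaving out control 1 ended the Lcn2 call (0.34, adjusted p = 0.162 with limma), as did leaving out Ets1-deleted 1 (0.35, adjusted p = 0.105 with limma). Pglyrp1 and Ngp differed by 0.26 and 0.17 and were not called.

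Inhibitors of the granule proteases moved both ways, with 2 higher and 1 lower of 6 tested. Serpinb1a encodes a serpin that blocks elastase, cathepsin G and proteinase 3. It rose by 1.11 ± 0.12 (adjusted p = 3.15e-05 with limma), to 737 and 620 units in Ets1-deleted cells, against 321 and 306 units in control cells. Slpi, a secreted inhibitor of elastase and cathepsin G, fell by 0.80 on the log2 scale (SE 0.12, adjusted p = 0.000347 with limma), to 169 and 188 units in Ets1-deleted cells, against 291 and 329 units in control cells. The cysteine protease inhibitor gene Cstb differed by 0.42, a call lost without control 2 (0.40, adjusted p = 0.0798 with limma) or Ets1-deleted 1 (0.30, adjusted p = 0.131 with limma). Wfdc21 differed by 0.25 and was not called.

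Among the other S100 genes, 1 of 6 tested rose and 0 fell, with a median of 0.019. S100a1, best known from muscle, rose by 0.76 ± 0.12 (adjusted p = 0.000446 with limma), although its other probe set above the limit gave 0.24. S100a6, S100a10 and S100a4, bright in both groups, differed by 0.02, 0.02 and -0.04. S100a13 and S100a16 differed by -0.19 and 0.17 and were not called.

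The partners of Cybb in the NADPH oxidase did not move as a group, with 1 higher and 2 lower of 7 tested and a median of -0.19. Ncf1, for the cytosolic organiser p47phox, rose by 0.80 ± 0.13 (adjusted p = 0.000704 with limma), to 228 and 218 units in Ets1-deleted cells, against 144 and 114 units in control cells. Ncf4, for the cytosolic subunit p40phox, fell by 0.70 (SE 0.11, adjusted p = 0.000501 with limma), to 766 and 790 units in Ets1-deleted cells, against 1231 and 1301 units in control cells. Rac2, the small GTPase of the complex, differed by -0.40 (adjusted p = 0.034 with limma). The Rac2 call was lost without control 1 (-0.41, adjusted p = 0.0689 with limma), control 2 (-0.39, adjusted p = 0.0928 with limma) or Ets1-deleted 2 (-0.25, adjusted p = 0.214 with limma), and likewise with the array floor subtracted (adjusted p = 0.097 with limma) or no filter (adjusted p = 0.0582 with limma). The membrane partner Cyba differed by -0.28, the chaperone gene Cybc1 by 0.24, Rac1 by -0.19 and the proton channel gene Hvcn1 by 0.08, none of them called.

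Of 15 tested transcription factors of myeloid cells, 6 rose and 0 fell, with a median of 0.32 (0.23 over the 16 measured). Gfi1, a repressor needed for neutrophil development and also used by ILC2, rose by 2.00 ± 0.12. The erythroid and platelet factor gene Nfe2 rose by 1.33 ± 0.11, Irf8, which directs monocyte and dendritic cell development, by 1.24 ± 0.12, and Klf4, of monocytes, by 0.98 ± 0.11 (limma, adjusted p at or below 5.4e-05 for these 4). Nfe2 and Klf4 were near the floor in control cells. Cebpb, of monocytes and stress granulopoiesis, rose by 1.08 ± 0.18, with a second probe set above the limit at 0.24. Spi1, which encodes PU.1, read 151 and 136 units in Ets1-deleted cells, against 84.9 and 119.9 units in control cells, a difference of 0.50 ± 0.15 (adjusted p = 0.0292 with limma). The Spi1 call was lost without control 1 (0.26, adjusted p = 0.326 with limma) and without Ets1-deleted 1 (0.43, adjusted p = 0.0982 with limma), and also with the array floor subtracted (1.02, adjusted p = 0.0601 with limma) or no filter (adjusted p = 0.082 with limma). Cebpa, the factor that starts granulocyte development, was near the floor in both groups, at 81.5 and 72.7 units in Ets1-deleted cells and 72.7 and 72.8 units in control cells.

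Growth factors and receptors of myeloid cells gave 4 higher and 3 lower of 12 tested, with a median of -0.10. Over the 24 measured genes the median was 0.03. Of these 24, 11 were near the floor in both groups, among them Cd14, Tlr2, Csf3r, Flt3 and Cxcr2. Csf2, the cytokine GM-CSF, rose by 2.79 ± 0.12, and the receptor chains Csf2rb and Csf2rb2 by 2.34 ± 0.13 and 1.45 ± 0.12 (limma, adjusted p at or below 3.16e-06 for these 3). The receptor chain gene Il3ra fell by 0.56 (SE 0.13, adjusted p = 0.00568 with limma), and Csf2ra differed by 0.03 and was not called. Csf1, a ligand of CSF1R, fell by 0.62 (SE 0.12, adjusted p = 0.00277 with limma), to 165 and 136 units in Ets1-deleted cells, against 226 and 235 units in control cells. Its other probe sets above the limit gave between -0.21 and -0.32. Il34, the other ligand, was near the floor in both groups. Il6ra fell by 0.67 (SE 0.13, adjusted p = 0.00187 with limma), with -0.05 on its other bright probe set. Tlr4 and Ager, receptors proposed for the S100A8 and S100A9 pair, differed by -0.12 and -0.16 and were not called.

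**Figure D4:**
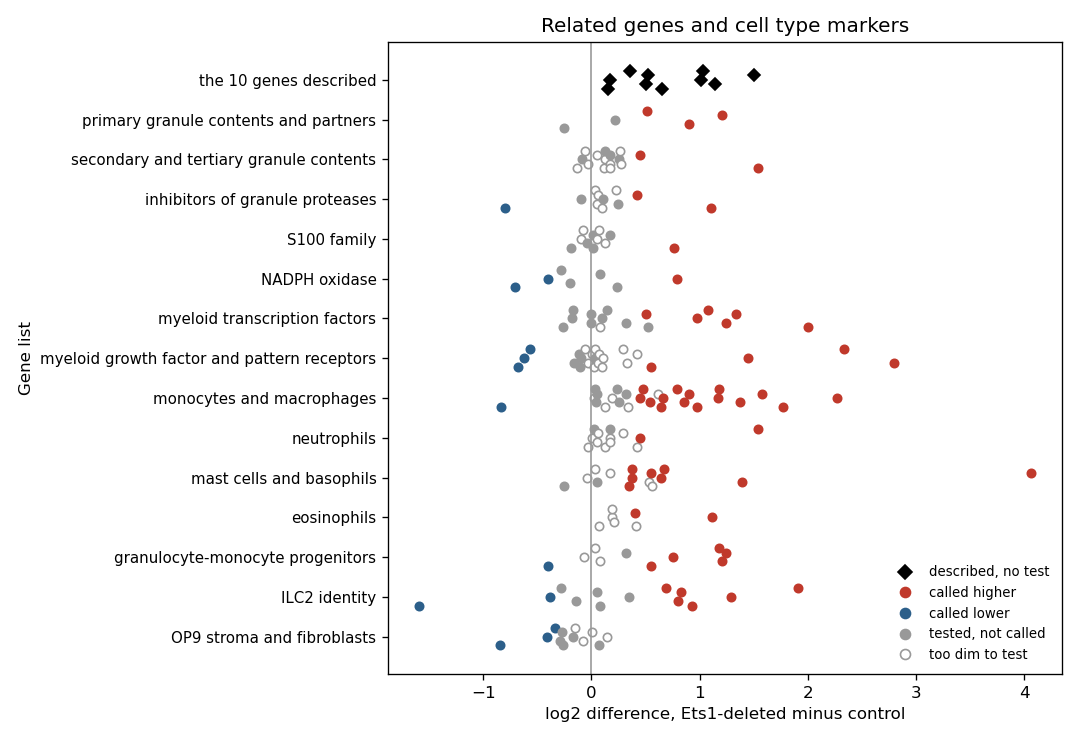
The log2 difference, Ets1-deleted minus control, for each measured gene of 14 lists, with a row per list and the 10 genes described at the top (black diamonds, no test). Red and blue points passed an adjusted p of 0.05 in limma, grey points did not, and open points were too dim to test. Of 13 neutrophil markers 9 are open points, while 15 of the 22 tested monocyte and macrophage genes are red.

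Markers of the cell types that carry these genes were unevenly present. Of 13 measured neutrophil markers, 8 were near the floor in both groups, including Csf3r, Cxcr2, Fpr2, Ltf and Cd177. Of the 4 tested, 2 were called higher and 0 lower, with a median of 0.31 over these 4. The 2 were Mmp8 at 1.54, which entered the test through its Ets1-deleted values, and Lcn2 at 0.45. The Lcn2 call was given above as lost without either of 2 arrays. Over all 13 measured markers the median was 0.17. Csf3r, the G-CSF receptor gene, read 94.9 and 90.1 units in Ets1-deleted cells, against 68.8 and 69.6 units in control cells. The summed neutrophil markers read 2375 and 2143 units in Ets1-deleted cells, against 2001 and 1982 units in control cells. Il1r2, a decoy receptor gene that ILC2 can also express, made up 1156 and 1007 of these units in Ets1-deleted cells, against 1078 and 1048 in control cells. Among granulocyte and monocyte progenitor markers 5 of 7 tested rose (Irf8, Fcgr3, Ms4a3, Kit and Cd34) and 1 fell, Gstm1 (-0.40, adjusted p = 0.0348 with limma). The Gstm1 call was lost without control 1 (-0.29) or Ets1-deleted 2 (-0.29). It was also lost in limma with the array floor subtracted (adjusted p = 0.0823), no filter (adjusted p = 0.0593) or the mean over probe sets (adjusted p = 0.162). Other Gstm1 probe sets above the limit gave -0.02 and -0.20. Cebpa and Flt3 of that list were near the floor in both groups.

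Most tested monocyte and macrophage markers were called higher. Of 22 tested, 15 rose, 1 fell and 6 were not called, with a median of 0.66 (0.54 over the 27 measured). The C1qa and Sirpa calls were lost without control 1 (0.37 and 0.36). The gene that fell was Ctss (-0.84, SE 0.12, adjusted p = 0.000219 with limma). It read 1579 and 1371 units in Ets1-deleted cells, against 2707 and 2557 units in control cells. Fcer1g, Msr1 and Apoe differed by 0.04, 0.04 and 0.05 and were not called. Lgals3, for galectin 3, rose by 2.27 ± 0.11, the lectin receptor gene Clec4d by 1.77 ± 0.12, the chemokine receptor gene Ccr2 by 1.57 ± 0.12 and the Fc receptor gene Fcgr3 by 1.18 ± 0.11 (limma, adjusted p at or below 9.77e-06 for these 4). Several of these genes, Lgals3 among them, are not restricted to macrophages. The summed list read 20309 and 19013 units in Ets1-deleted cells, against 10928 and 11204 units in control cells. Without Lgals3 it read 13309 and 12529 units in Ets1-deleted cells, against 9565 and 9767 units in control cells. Of 27 measured genes 4, Fcgr1, Mertk, Cd163 and Marco, were near the floor in both groups. The part of these cells in the readings of the 10 genes was not tested.

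Mast cell and basophil markers that were tested were also mostly called higher, and eosinophil markers were mostly too dim to test. Among 10 tested genes of mast cells and basophils, 8 were called higher and 0 lower (median 0.46, and 0.38 over the 15 measured). The 8 were led by the carboxypeptidase gene Cpa3 (4.07 ± 0.12) and the protease gene Mcpt2 (1.39 ± 0.11). Fcer1a and Tpsab1 were near the floor in both groups. Mitf and Mcpt1 rose by 0.67 and 0.64. Mcpt8, a basophil protease gene, read 1097 and 1193 units in Ets1-deleted cells, against 1337 and 1385 units in control cells. Mcpt8 differed by -0.25 and Tpsb2 by 0.06, and neither was called. Cma1, Gata2 and Hdc differed by 0.37, 0.35 and 0.38. Leaving out control 1, control 2 or Ets1-deleted 2 ended the Cma1 and Gata2 calls (0.27 to 0.43 and 0.28 to 0.37). The Hdc call was lost without Ets1-deleted 1 (0.34). The summed level of the mast cell and basophil list was 4575 and 4402 units in Ets1-deleted cells, against 2754 and 2764 units in control cells. Without Cpa3 it was 3077 and 3140 units in Ets1-deleted cells, against 2669 and 2686 units in control cells. Of 7 measured eosinophil genes, 4 (Epx, Prg3, Ccr3 and Il5ra) were near the floor in both groups and all 7 in control cells. The 2 that were tested, both called higher, passed the filter through their Ets1-deleted values alone, and with no filter 2 of the 7 were called. Prg2, for the granule major basic protein, rose by 1.11 ± 0.12, to 124 and 148 units in Ets1-deleted cells, against 60.2 and 65.3 units in control cells. Siglecf differed by 0.41 ± 0.11 (adjusted p = 0.0158 with limma), a call lost without control 1, control 2 or Ets1-deleted 2 (0.37 to 0.41, adjusted p between 0.0571 and 0.0746 with limma). The summed eosinophil list read 624 and 673 units in Ets1-deleted cells, against 493 and 486 units in control cells. The part of these cell types was not tested either.

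The measured ILC2 markers were present in both groups, which does not by itself identify the cells. Genes of other lists, such as Lgals3 and Ccr2, also read above the array medians in both groups. All 13 measured ILC2 genes read above the array medians in both groups: Gata3, Rora, Il5, Il13, Icos, Thy1, Il7r, Il2ra, Il17rb, Id2, Bcl11b, Klrg1 and Ptprc (Areg was not analysed here). Of these 6 rose and 2 fell, with a median of 0.35. Klrg1 fell by 1.60 and Icos, the gate of the sort, differed by -0.38, a call lost with the array floor subtracted or without either control or Ets1-deleted 1 (-0.33 to -0.42, adjusted p between 0.0675 and 0.141 with limma). Genes of the OP9 stroma and of fibroblasts were called higher in 0 and lower in 3 of 8 tested cases, with a median of -0.28. The part of stromal cells in the readings of the 10 genes was not tested. Pdgfrb, for a receptor of stromal cells, fell by 0.85 (SE 0.13, adjusted p = 0.000541 with limma). The Cxcl12 and Vcam1 calls (-0.41 and -0.34) were each lost in limma without control 2 (-0.18 and -0.37) and without Ets1-deleted 1 (-0.27 and -0.31). The Cxcl12 call was also lost in limma with the array floor subtracted (adjusted p = 0.0507) or the mean over probe sets (adjusted p = 0.0657). The Vcam1 call was also lost without control 1 (-0.31) or Ets1-deleted 2 (-0.37), at adjusted p = 0.216 and 0.0576 with limma. Col1a1 differed by -0.29 and was not called.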

How the data were processed

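RNA of 2 Ets1-deleted and 2 control samples was hybridised to 1 Affymetrix array each. The deposited values are intensity units per probe set that the authors made with RMA, per the submitters' processing notes. The sources used here state no version or scaling. The values run from 39.47 to 23291, so the scale was read as linear, and log2 was taken with no further normalization. Of 45101 probe sets, 34945 had 1 gene symbol in the platform annotation of the array, 932 had several and 9211 had none. The array maker's 64 controls were left out. A gene was tested where its brightest probe set had a mean of at least 97.97 intensity units (50th percentile). Groups were compared with limma (lmFit and eBayes; version 3.58.1, R 4.3.3), two-sided, with Benjamini-Hochberg adjustment over 10875 genes, 2 residual and 9.56 prior degrees of freedom. It called 2918 genes at 0.05. The code was tested on simulated data. Precision is limited by the number of arrays, and since separate cultures or animals are not stated, the spread behind the p-values may be technical. With 2 arrays per group, the smallest p of an exact permutation test is 0.333.

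The 10 genes and the 14 lists were chosen with earlier results of these data known. Named genes were the 10, Ets1, the ILC2 and NADPH oxidase genes, and from each list the 4 of smallest p, and other list genes could be named where they passed the threshold or, as defining markers, lay at the floor. Tlr4, Ager, S100a4, S100a6 and S100a10 were added for their roles, with their values known. Csf2ra, Fcer1g, Msr1, Apoe, Mcpt8 and Tpsb2 were added as tested genes that were not called, also with their values known. Of 194 list genes 167 were measured and 114 tested. The rest were not analysed here.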

Additional observations from a re-analysis of the deposited data

Results flagged for a closer look

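Probe sets with several symbols were used in no comparison. Of 8 that include a gene of the lists, 4 read higher in both Ets1-deleted arrays than in both controls and lay above the floor. They were singled out because they hold signal above the control level in data left out of the comparisons. The probe set shared by Csf2rb2 and Csf2rb, chains of the receptors for GM-CSF, IL-3 and IL-5, read 615 and 461 units in Ets1-deleted cells, against 110.3 and 147 units in control cells (log2 difference 2.06). The probe set shared by Ly6c2 and Ly6c1, a surface protein of monocytes and other blood cells, read 444 and 322 units in Ets1-deleted cells, against 174 and 189.6 units in control cells (1.06). The probe set shared by Cstdc5 and the stefin gene Stfa1 read 328 and 345 units in Ets1-deleted cells, against 174 and 208 units in control cells (0.83). The probe set shared by S100a11 and copies of it read 9669 and 8251 units in Ets1-deleted cells, against 6830 and 6084 units in control cells (0.47). No test was made for these.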

How the results depend on the processing

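Of 110 recomputed differences of single genes among the 10, 98 moved by less than the replicate SD, 11 moved by more and 1 turned round (Elane, which ranged from -0.060, without control 1, to 0.41, without control 2). The median of the 10 was 0.76 with the array floor subtracted and lay between 0.51 and 0.71 with 1 array left out. The count of called genes, 2918, lay between 2163 (stricter filter, 70th percentile) and 3298 (replicate block). The block of shared replicate numbers moved no list count by over 1.5 times. The labels do not say that numbers pair samples, and with 2 pairs the correlation of their deviations was 0.17. Of 63 called list genes, 49 stayed called under every alternative that tested them. With the floor subtracted, 1 gene was lower among ILC2 genes, 1 in the NADPH oxidase and 0 among progenitor markers, and 1 protease inhibitor was higher. With the mean over probe sets, 4 ILC2 genes, 1 stromal gene, 0 progenitor markers, 2 transcription factors and 1 primary granule gene were lower. Without the filter 1 oxidase gene and 0 progenitor markers were lower. The stricter filter tests fewer dim genes: 0 oxidase, 0 eosinophil, 0 neutrophil and 0 later granule genes, 3 progenitor, 3 mast cell, 9 monocyte genes and 3 transcription factors were higher, and 0 growth factor or receptor genes lower. With 1 array left out, genes called lower ranged from 1 to 2 among ILC2 genes, 1 to 2 in the oxidase, 1 to 2 in stroma, 0 to 1 in progenitor markers and 0 to 1 in transcription factors. Genes called higher then ranged from 0 to 1 in eosinophils and from 1 to 2 in inhibitors, neutrophils and later granules. Other causes were not tested. Where a group was left with 1 array, its spread was taken from the other group. Low readings limit what can be said of Elane and Cybb, close to the array medians, and of the 8 neutrophil markers near the floor.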

Other observations

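Values of the genes beside the 10 on the chromosome, a choice made after seeing the data, are given without a test. Between S100a8 and S100a6, its nearest measured neighbour on one side, the log2 difference, Ets1-deleted minus control, dropped to 0.02 for S100a6, against 0.65 for S100a8. Beside Mpo, Tspoap1 differed by 0.93, more than Mpo itself (0.36), and Lpo, too dim to test, by 0.0048. Prtn3 and Elane (0.52 and 0.18) lie next to each other, and their nearest measured neighbours Plppr3 and Med16 differed by 0.38 and 0.37. Beside Lyz1, Cpsf6 differed by 0.03 and Cpm, for carboxypeptidase M, by -1.05, with 91.8 and 75.2 units in Ets1-deleted cells, against 186 and 160.2 units in control cells. Ctsg sits among genes of related serine proteases. Of these Mcpt2 differed by 1.39, Gzme by 1.01 and Mcpt8, a basophil protease gene, by -0.25. Gzmd, too dim to test, read 129 and 130.1 units in Ets1-deleted cells, against 53.0 and 53.3 units in control cells. Csf1r and Pdgfrb, which lie next to each other, differed in opposite directions (1.01 and -0.85).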
